A study of Mus musculus with 2 samples.

Results

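The cyclic AMP-dependent protein kinase, protein kinase A, was examined in mouse heart through 10 genes taken by symbol: 2 catalytic subunit genes (Prkaca and Prkacb), 4 regulatory subunit genes (Prkar1a, Prkar1b, Prkar2a and Prkar2b) and 4 A-kinase anchoring protein genes (Akap1, Akap5, Akap6 and Akap13). They are 10 of 55536 annotated genes in the tables, and all 10 symbols were found once each. The data were 2 total RNA libraries, depleted of ribosomal RNA and made with spike-in RNAs, of heart tissue from male B6CASTF1/J mice, the F1 cross of the B6 and CAST strains, aged 14 days. No treatment or engineered allele is named for them. The labels call the libraries biological replicates 1 and 2 and name 3 males. They carry 1 donor label for both and do not say whether RNA was pooled. The spread between the libraries may therefore not be one between animals. It includes differences in thymus, atrial and fat markers, given below. Each library started from 300 ng of RNA, and there was 1 group, so the values below are levels in that group and differences between its 2 libraries.

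Protein kinase A is kept inactive as a holoenzyme in which a dimer of regulatory subunits holds catalytic subunits. Binding of cyclic AMP to the regulatory subunits frees the catalytic activity, which in heart muscle phosphorylates proteins of calcium handling and of the contractile filaments downstream of beta-adrenergic receptors. Anchoring proteins bind the regulatory dimer and place the kinase at particular membranes and organelles, and small heat-stable inhibitor proteins block free catalytic subunits.

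Depth was 39334380 expected counts in replicate 1 and 46391250 in replicate 2. Summed TPM (the per-length level, scaled to the same total in each table) of the 6 cardiomyocyte markers were 30142 and 28670 in replicates 1 and 2, and all 6 were above 1 TPM in both libraries. The libraries differed in marker genes of thymus and T cells, of atria and of fat. The 9 T cell and thymus genes summed to 1.63 TPM in replicate 1 and 55.9 TPM in replicate 2, the 4 atrial markers to 1585 and 492 TPM, the 4 adipocyte markers to 18.9 and 10.7 TPM and the 3 brown adipocyte markers to 35.5 and 22.9 TPM. Mitochondrial genes held 29.0% and 28.1% of TPM in replicates 1 and 2, so TPM values of nuclear genes are lowered by that share. Other noncoding genes held a further 27.8% and 28.9%, which lowers TPM values of nuclear protein-coding genes further. After rescaling to nuclear protein-coding genes, levels of the subunit and anchoring protein genes were 2.36 to 2.38 times the reported ones.

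The first sequences shown are the coding starts of the catalytic genes, because the transcripts of each gene differ there. Coding bases are 5' to 3' with the start codon in capitals.
Prkaca-201: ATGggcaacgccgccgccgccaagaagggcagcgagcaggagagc
Prkaca-202: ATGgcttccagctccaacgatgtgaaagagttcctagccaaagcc
Prkacb-202: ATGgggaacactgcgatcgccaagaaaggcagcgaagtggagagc
Prkacb-201: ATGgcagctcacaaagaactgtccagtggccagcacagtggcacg
In mm10 coordinates these lie at chr8:83973187-83973231 on the plus strand for Prkaca-201 and at chr8:83977073-83980796 on the plus strand for Prkaca-202, whose 45 bases are interrupted by an intron. They lie at chr3:146812639-146812683 for Prkacb-202 and at chr3:146781289-146781333 for Prkacb-201, both on the minus strand. Prkaca-201 and Prkacb-202 code for 351 codons each, and 845 of their 1053 aligned coding bases (80.2%) were identical. Both open with a glycine codon after the start codon, the residue that is myristoylated in the catalytic alpha protein.

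The second set is the inhibitor site, the stretch of a regulatory subunit that occupies the active site of the catalytic subunit, since it sets type I apart from type II subunits. It was found by searching each translated coding sequence for a pair of arginines, any residue, then alanine, glycine or serine, then isoleucine or valine. Capitals mark the codon of the residue that takes the place of the phosphorylated one.
Prkar1a-201: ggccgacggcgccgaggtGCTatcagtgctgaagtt
Prkar1b-201: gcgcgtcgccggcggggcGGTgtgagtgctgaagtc
Prkar2a-201: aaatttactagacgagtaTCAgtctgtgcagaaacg
Prkar2b-201: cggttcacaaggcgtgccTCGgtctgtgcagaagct
Pkia-201: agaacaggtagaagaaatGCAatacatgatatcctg
Pkig-201: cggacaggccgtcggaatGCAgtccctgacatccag
These sites lie, in mm10, at chr11:109660098-109660133 (plus strand) in Prkar1a, chr5:139108520-139108555 (minus strand) in Prkar1b, chr9:108714287-108716876 (plus strand) in Prkar2a, chr12:31993770-32038643 (minus strand) in Prkar2b, chr3:7437410-7437445 (plus strand) in Pkia and chr2:163721196-163721231 (plus strand) in Pkig. The marked codon was alanine in Prkar1a and glycine in Prkar1b, which cannot be phosphorylated, and serine in Prkar2a and Prkar2b. Each of the 4 regulatory sequences held 1 match. The inhibitor proteins Pkia and Pkig carried alanine there, with 21 codons before it in each. The leading Pkib transcript held no match to this pattern. Residues other than isoleucine or valine in the last place were not searched, so this does not show that Pkib lacks a site. Of the printed sites, those of Prkar2a and Prkar2b are interrupted by an intron in the genome. Coding identity was 75.2% of 1139 aligned bases between Prkar1a-201 and Prkar1b-201, 72.6% of 1190 between Prkar2a-201 and Prkar2b-201, and 61.2% of 1088 between Prkar1a-201 and Prkar2a-201.

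Of the 10 genes, 9 reached 1 TPM in both libraries. Levels are per length, from the RSEM-style gene tables unless the kallisto-style tables are named. The median over the 10 genes was 32.7 TPM in replicate 1 and 32.1 TPM in replicate 2, beside 5.37 and 5.50 TPM over the 16611 genes tested between the libraries. Prkaca and Prkar1a stood at the top with overlapping ranges, and Prkar2b, Akap5 and Prkar1b at the bottom. No test was made of levels between genes, since a 2-sided exact permutation test of 2 values cannot go below p = 0.5.

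**Figure D1:**
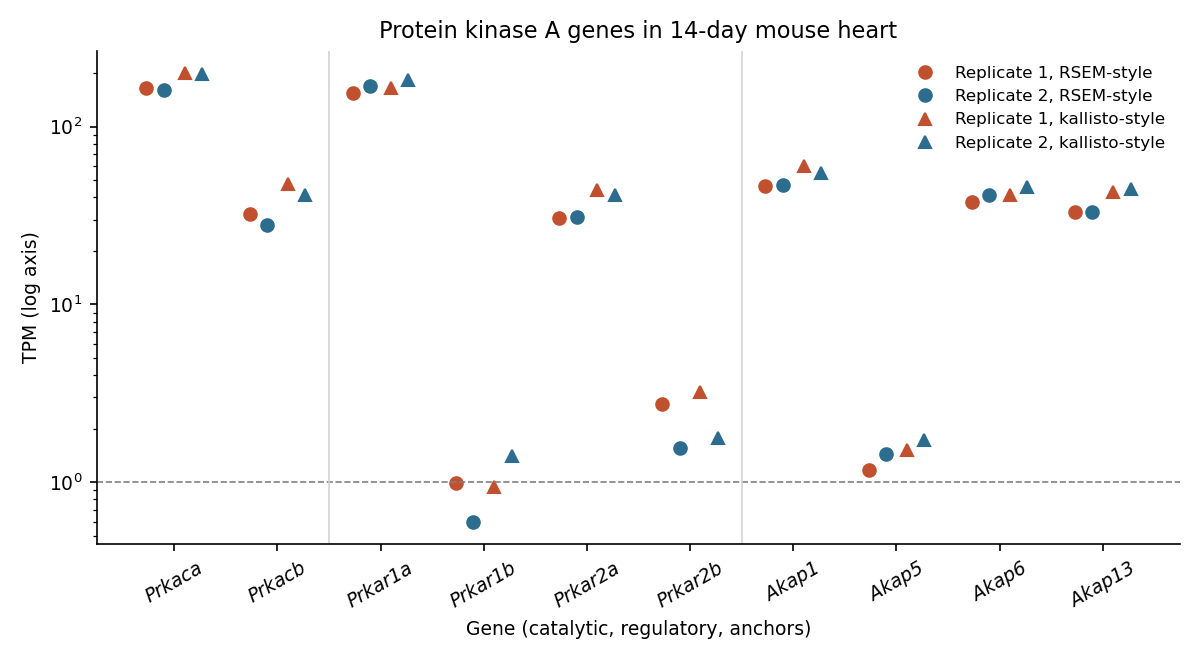
TPM (log axis) of the 10 genes in replicate 1 and replicate 2, by the RSEM-style tables (circles) and the kallisto-style tables (triangles); the dashed line is 1 TPM. Prkaca and Prkar1a lie highest by both tables, between 155 and 200 TPM, and Prkar1b lies near the line.

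Prkaca encodes the catalytic alpha subunit (chr8:83972993-83996443, plus strand). It had 164.3 TPM in replicate 1 and 161.79 TPM in replicate 2, a mean of 163 ± 1.77 TPM (SD, n = 2). This placed it at rank 374 of 11416 protein-coding genes at 1 TPM or more in both libraries, above 96.7% of them. The kallisto-style tables gave 200 and 198 TPM. Of the 2457 different 31-base words in its transcripts, 73 also occur in another gene, mostly in the pseudogene Prkaca-ps1.

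Prkacb encodes the catalytic beta subunit (chr3:146729574-146812990, minus strand). It had 32.24 TPM in replicate 1 and 28.01 TPM in replicate 2, and 47.8 and 41.1 TPM by the kallisto-style tables. The alpha gene was thus the larger part of the catalytic mRNA in both libraries. Prkaca held 83.6% of catalytic TPM in replicate 1 and 85.2% in replicate 2. The log2 ratio of Prkaca over Prkacb (0.1 TPM added to each) was 2.35 in replicate 1 and 2.53 in replicate 2, with a mean of 2.44 ± 0.13 (SD, n = 2), or 5.41-fold. The kallisto-style mean was 2.16, and the RSEM-style mean over transcripts annotated as complete, an alternative chosen after seeing the data, was 2.98.

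Prkar1a encodes regulatory subunit type I alpha (chr11:109649405-109669656, plus strand), the regulatory gene mutated in human Carney complex. It had 154.94 TPM in replicate 1 and 169.03 TPM in replicate 2, a mean of 162 ± 9.96 TPM (SD, n = 2). Its range overlapped that of Prkaca in the RSEM-style tables but not in the kallisto-style tables, which gave Prkar1a 165 and 182 TPM. It held 81.8% and 83.5% of regulatory TPM in replicates 1 and 2.

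Prkar2a encodes type II alpha (chr9:108689314-108750436, plus strand). It had 30.72 TPM in replicate 1 and 31.12 TPM in replicate 2, a range that lay within that of Prkacb. It was the next regulatory gene after Prkar1a, with 16.2% and 15.4% of regulatory TPM.

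Prkar2b encodes type II beta (chr12:31958476-32061296, minus strand), known as a main regulatory subunit of fat and brain. It had 2.74 TPM in replicate 1 and 1.56 TPM in replicate 2, from 203 and 136 counts. Its rank was 10287 of the 11416 detected protein-coding genes. Prkar2a over Prkar2b was 3.84 ± 0.56 on the log2 scale (SD, n = 2).

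Prkar1b encodes type I beta (chr5:139017306-139150001, minus strand), known mostly from neurons. It had 0.99 TPM in replicate 1 and 0.6 TPM in replicate 2, from 53 and 55 counts, and fell below 1 TPM in both. Both values lie under the deposited interval for the gene, 1.18 to 2.65 TPM in replicate 1 and 1.00 to 2.30 TPM in replicate 2; the confidence level of that interval is not stated in the file. The posterior mean TPM of the same tables was 1.87 and 1.62, above 1 TPM in both libraries. Its transcripts share 313 of 3784 31-base words (8.27%) with other genes, mostly with Gm15672, whose exons overlap its own by up to 341 bases on the same strand and which had 0.1 and 0.2 TPM. The 4 neuron markers summed to 2.47 and 2.55 TPM, with 3 of 4 under 1 TPM in both libraries, and their part in the Prkar1b level was not tested.

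As sums, type I regulatory genes had 156 TPM in replicate 1 and 170 TPM in replicate 2, and type II genes 33.5 and 32.7 TPM. The log2 ratio of type I over type II was 2.22 in replicate 1 and 2.37 in replicate 2, with a mean of 2.29 ± 0.11 (SD, n = 2), or 4.91-fold. The 4 regulatory genes summed to 189 TPM in replicate 1 and 202 TPM in replicate 2, and the 2 catalytic genes to 197 and 190 TPM. Regulatory over catalytic was -0.05 in replicate 1 and 0.09 in replicate 2 on the log2 scale, with a mean of 0.02 ± 0.10 (SD, n = 2), so the sign differed between the libraries. The kallisto-style mean was -0.15, and the ratio of expected counts not divided by length was 0.53, so no order of the 2 sums held under every setting tried. These are mRNA levels, and protein was not measured.

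**Figure D2:**
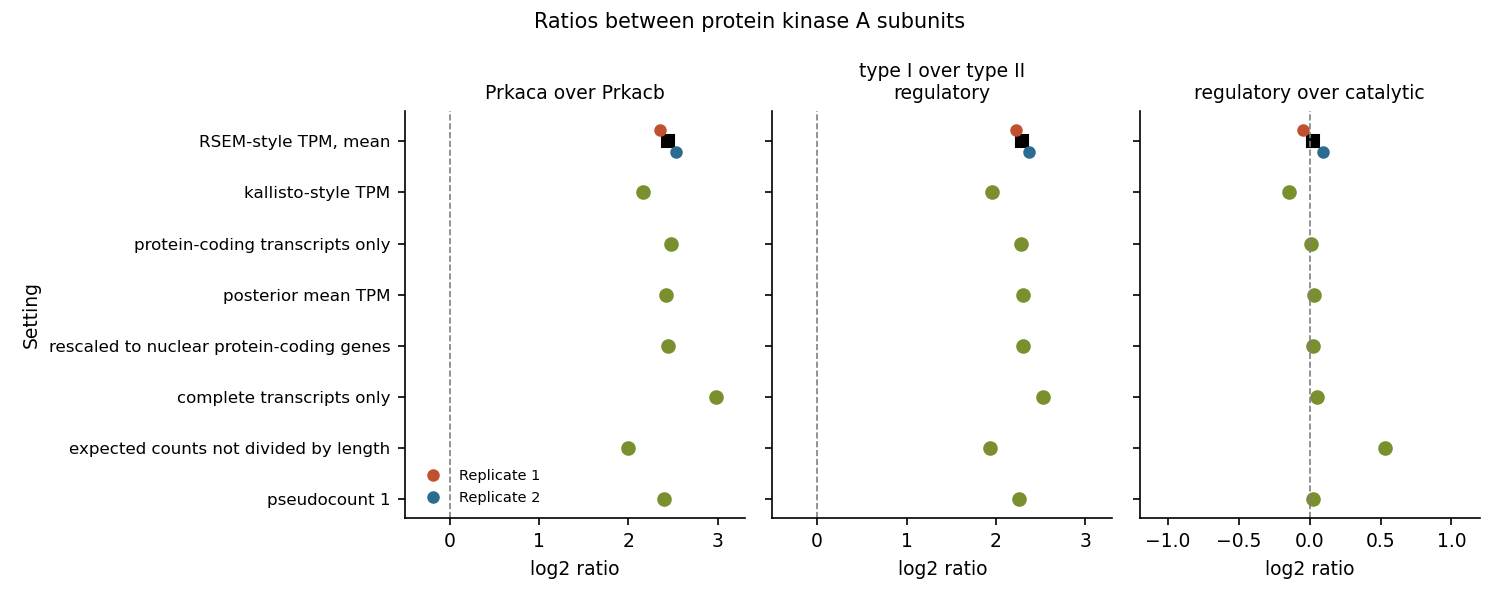
Log2 ratios of Prkaca over Prkacb, type I over type II regulatory genes and regulatory over catalytic genes under each setting; the black square is the mean of the RSEM-style TPM values, coloured points in the top row are replicates 1 and 2, and the dashed line is 0. The first 2 ratios lie between 1.93 and 2.98 in every setting shown, and the last lies between -0.15 and 0.53.

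Among the anchors, Akap1 tethers the kinase at the outer mitochondrial membrane (chr11:88830792-88864586, minus strand). It had 46.51 TPM in replicate 1 and 46.8 TPM in replicate 2, apart from its neighbours in order by both kinds of table. Akap6, which encodes the muscle anchoring protein of the nuclear envelope (chr12:52699383-53155599, plus strand), had 37.46 TPM in replicate 1 and 41.13 TPM in replicate 2. Akap13 encodes a large anchoring protein that is expressed in heart (chr7:75455534-75754609, plus strand). It had 33.14 and 33.02 TPM in replicates 1 and 2. In the RSEM-style tables the ranges of Akap6 and Akap13 did not overlap, whereas in the kallisto-style tables Akap13, at 42.9 and 44.7 TPM, overlapped Akap6, at 41.5 and 46.0 TPM.

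Akap5 encodes a plasma membrane anchor that also binds calcineurin (chr12:76324891-76334153, plus strand). It was far below the other anchors, with 1.17 TPM in replicate 1 and 1.44 TPM in replicate 2, from 192 and 285 counts. Akap6 over Akap5 was 4.81 ± 0.10 on the log2 scale (SD, n = 2). These 4 anchors summed to 118 TPM in replicate 1 and 122 TPM in replicate 2, below the catalytic sums. Further anchors, described below, are not in this sum. The 12 other AKAP genes summed to 161 and 160 TPM in replicates 1 and 2. The 12 anchors without an AKAP symbol summed to 792 and 832 TPM.

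The catalytic transcripts were led by the forms that code for the myristoylated start. Prkaca-201 held 99.6% of Prkaca TPM in replicate 1 and 99.7% in replicate 2, and 92.2% and 92.3% by the kallisto-style tables. Prkaca-202, whose first coding exon is that of the sperm form, had 0.60 and 0.50 TPM by the RSEM-style tables and 15.5 and 15.2 TPM by the kallisto-style tables, so its level is not settled by these data. Prkacb-202 held 58.2% and 59.8% of Prkacb TPM, and 43.2% and 47.7% by the kallisto-style tables. Prkacb-201, shown above with another coding start, had 1.11 TPM in replicate 1 and 2.42 TPM in replicate 2.

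The rest of Prkacb was placed on different short transcripts by the different tables. The fragment Prkacb-208, which GENCODE marks as incomplete, held 35.1% and 27.8% by the RSEM-style tables and 0 TPM by the kallisto-style tables. The kallisto-style tables gave 32.4% and 24.6% to another incomplete fragment, Prkacb-207, and 22.1% and 23.1% to the retained-intron transcript Prkacb-205. Prkacb-208 is short, so its share of TPM came with few counts: incomplete transcripts held 4.90% and 3.54% of Prkacb expected counts. Without incomplete transcripts Prkacb was at 20.9 TPM in replicate 1 and 20.2 TPM in replicate 2.

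Prkar1a showed the largest disagreement between the tables among the members above 1 TPM. Prkar1a-201 (starting at base 109650921) held 71.3% and 75.0% by the RSEM-style tables but 21.7% and 22.3% by the kallisto-style tables. Prkar1a-203 (starting at base 109649405) held 21.7% and 18.7% by the RSEM-style tables and 75.6% and 75.0% by the kallisto-style tables. Both have the same coding sequence of 1143 bases and differ in their 5' exons, so the order of these starts was reversed between the tables while the coded protein was not affected. Prkar2a-201 held 83.2% and 82.6% of Prkar2a and the incomplete Prkar2a-202 16.5% and 17.1%, against 63.6% and 69.3%, and 36.1% and 28.9%, by the kallisto-style tables. Prkar2b-201 held 48.5% and 48.4% of Prkar2b and Prkar2b-202 42.3% and 24.5%. By the kallisto-style tables Prkar2b-201 held 46.1% and 43.8% and Prkar2b-202 50.6% and 25.5%. The leading Prkar2b transcript in replicate 1 thus differed between the tables. Prkar2b-203, with 256 codons against 416 in the other 2, held 9.12% and 27.1%, and 3.29% and 30.7% by the kallisto-style tables.

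The transcripts of Prkar1b could not be ordered, at the low counts given above. By the RSEM-style tables Prkar1b-202 led with 57.6% in replicate 1, where Prkar1b-209 held 25.3% and Prkar1b-203 10.1%, and Prkar1b-201 led with 98.3% in replicate 2. By the kallisto-style tables Prkar1b-203 led with 61.7% in replicate 1 and Prkar1b-202 with 38.7% in replicate 2, where Prkar1b-207 held 38.1%. Prkar1b-201 held 0.185% and 0.00114% there, and Prkar1b-204 19.6% and 20.5%.

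The split of Akap6 was alike in both kinds of table. Akap6-201 had 19.50 TPM in replicate 1 and 21.28 TPM in replicate 2, or 52.0% and 51.7%, and Akap6-202 had 17.97 and 19.86 TPM, or 48.0% and 48.3%. The kallisto-style tables gave Akap6-201 53.6% and 53.3%. Akap6-201 codes for 2307 codons and Akap6-202 for 1224, from the same coding start at base 52795871. They share 3576 coding bases, 51.7% of the Akap6-201 coding sequence, and part at the junction shown next, where capitals mark the bases of the following exon.
Akap6-201: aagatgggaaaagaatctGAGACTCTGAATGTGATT
Akap6-202: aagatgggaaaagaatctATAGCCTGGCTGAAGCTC
At this junction Akap6-201 continues into the exon at chr12:53139381-53142768, plus strand, which holds 3345 coding bases. Akap6-202 skips that exon and continues at chr12:53147811-53147906, where its last 96 coding bases are noncoding exon sequence in Akap6-201.

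Akap13 was spread over more transcripts. Akap13-205, which codes for 2794 codons, held 50.9% and 52.1%. The incomplete Akap13-203 held 17.4% and 10.3%, the incomplete Akap13-208 8.12% and 6.24%, and the noncoding Akap13-214 held 8.45% and 13.4% by the RSEM-style tables. The kallisto-style tables gave Akap13-205 43.0% and 41.8%, Akap13-203 23.6% and 18.1%, Akap13-208 17.0% and 20.5% and Akap13-214 0% and 0.889%. Akap1-201 held 87.1% and 85.9% of Akap1, and 66.0% and 75.3% by the kallisto-style tables, which placed 14.6% and 4.35% on the retained-intron Akap1-206 and 15.8% and 16.4% on Akap1-203. For Akap5, Akap5-202, Akap5-203 and Akap5-201 held 52.1%, 30.8% and 17.1% in replicate 1 and 35.7%, 29.4% and 35.0% in replicate 2. By the kallisto-style tables they held 38.6%, 35.1% and 26.3% in replicate 1 and 47.6%, 23.9% and 28.5% in replicate 2.

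**Figure D3:**
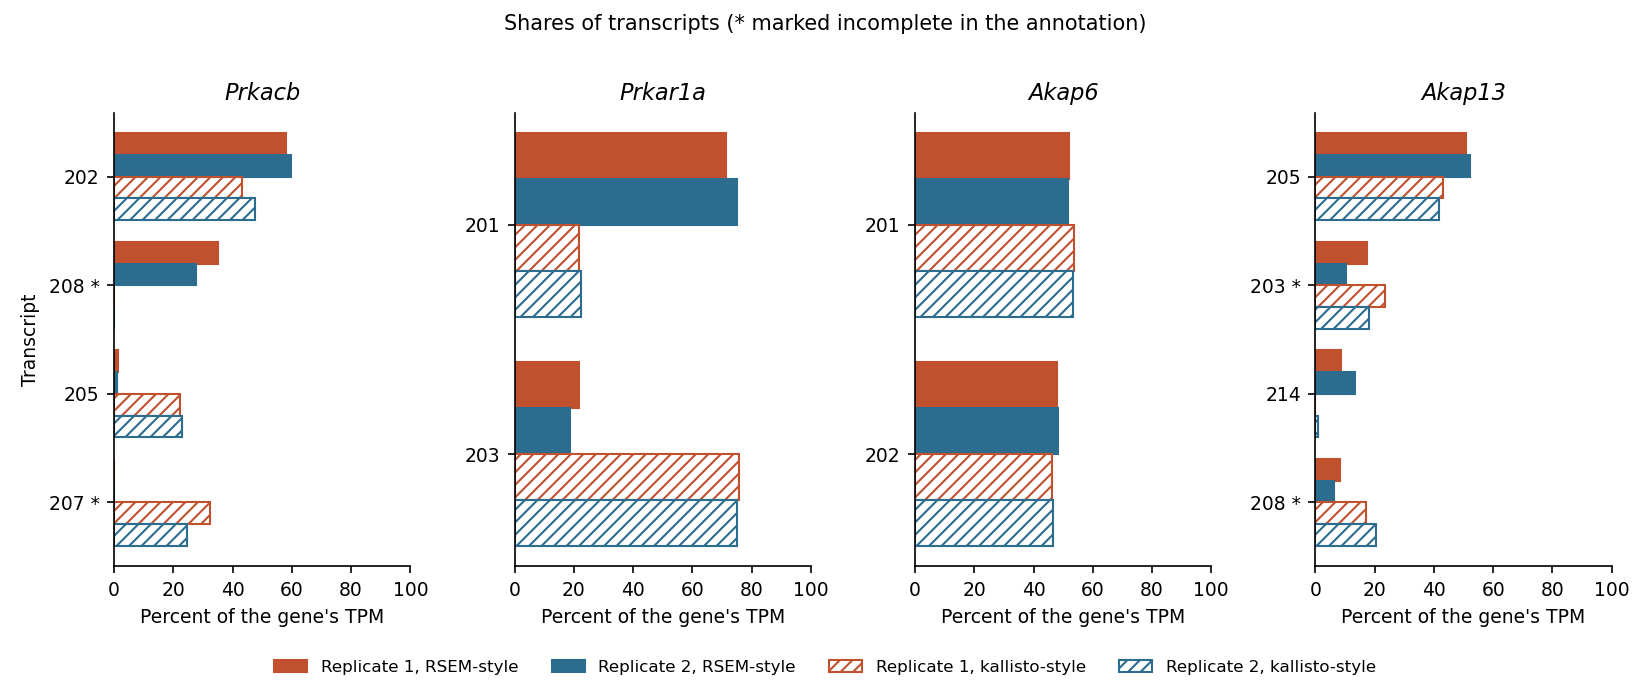
Transcript share (percent) of a gene's TPM, for transcripts with at least 10% in either library by either table, for Prkacb, Prkar1a, Akap6 and Akap13, in replicates 1 and 2 (filled bars RSEM-style, hatched bars kallisto-style). The 4 bars of Akap6-201 lie between 51.7% and 53.6%, whereas the Prkar1a bars swap places between the tables.

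Promoter windows of some of the starts compared above are shown because the transcript tables place RNA on them unequally. They are RefSeq windows of GRCm38.p6, from 250 bases before to 50 after a start, matched to GENCODE starts within 100 bases. Capitals mark the cyclic AMP response element TGACGTCA and its short form TGACG, searched on both strands (CGTCA on the other), the element bound by the kinase's nuclear substrate Creb1.
Prkaca-201 window, chr8:83972728-83973027, plus strand: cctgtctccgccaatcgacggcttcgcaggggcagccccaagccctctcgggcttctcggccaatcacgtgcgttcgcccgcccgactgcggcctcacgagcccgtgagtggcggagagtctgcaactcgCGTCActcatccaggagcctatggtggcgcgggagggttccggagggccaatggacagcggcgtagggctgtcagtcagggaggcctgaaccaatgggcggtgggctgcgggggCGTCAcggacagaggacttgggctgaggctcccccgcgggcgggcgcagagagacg
Prkaca-202 window, chr8:83976633-83976932, plus strand: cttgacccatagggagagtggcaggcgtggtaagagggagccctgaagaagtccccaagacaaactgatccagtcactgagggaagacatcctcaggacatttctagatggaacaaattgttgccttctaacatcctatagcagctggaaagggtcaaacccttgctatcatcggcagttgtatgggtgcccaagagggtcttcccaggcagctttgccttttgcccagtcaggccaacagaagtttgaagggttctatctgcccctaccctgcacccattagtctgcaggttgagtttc
Prkacb-202 window, chr3:146812897-146813196, minus strand: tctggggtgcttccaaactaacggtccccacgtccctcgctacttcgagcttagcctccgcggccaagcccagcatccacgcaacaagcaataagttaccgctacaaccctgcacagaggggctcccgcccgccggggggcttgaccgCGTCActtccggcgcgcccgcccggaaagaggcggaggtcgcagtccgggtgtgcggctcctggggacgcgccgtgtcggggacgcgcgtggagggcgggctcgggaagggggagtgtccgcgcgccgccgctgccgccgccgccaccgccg
Prkar1a-203 window, chr11:109649113-109649412, plus strand: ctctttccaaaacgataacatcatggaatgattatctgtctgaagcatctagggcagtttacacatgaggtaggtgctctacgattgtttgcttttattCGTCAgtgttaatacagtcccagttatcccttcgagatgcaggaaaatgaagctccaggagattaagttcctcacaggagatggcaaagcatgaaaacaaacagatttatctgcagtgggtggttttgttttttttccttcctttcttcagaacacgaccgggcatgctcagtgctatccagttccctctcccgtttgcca
Prkar1a-201 window, chr11:109650699-109650998, plus strand: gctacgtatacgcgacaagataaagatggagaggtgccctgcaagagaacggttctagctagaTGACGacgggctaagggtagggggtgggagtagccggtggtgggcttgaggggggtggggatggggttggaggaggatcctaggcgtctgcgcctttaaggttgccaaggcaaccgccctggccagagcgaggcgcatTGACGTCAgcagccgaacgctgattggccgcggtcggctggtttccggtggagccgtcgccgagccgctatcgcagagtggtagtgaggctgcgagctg
The windows of the leading Prkaca and Prkacb starts were rich in CpG, with 31 and 41 CpG dinucleotides and 69.7% and 72.0% G and C, beside a median of 7 and 52.7% over 32817 windows. The Prkaca-202 window held 2 CpG dinucleotides and 51.3% G and C. The printed Prkar1a-201 window held 25 CpG dinucleotides, and an overlapping window matched to the same transcript held 15. The Prkar1a-203 window held 7. The Prkacb-201 window, not printed, held 2 CpG dinucleotides and 38.0% G and C. The full element was found in 2 of the 25 windows of the 10 genes, both of them overlapping windows of Prkar1a that hold the same copy, at base 109650900 of chromosome 11. It occurs in 1.79% of all windows and the short form in 20.8%. These matches are letters in a window and not measured binding.

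Between the libraries, none of the 10 members differed by at least 2-fold at an adjusted p under 0.05 (exact binomial test on rounded expected counts, TMM-scaled, Benjamini-Hochberg over 16611 genes). Of all genes tested, 3.20% were called by that rule. At an unadjusted p under 0.05 the same test gave 6 of 10 members, beside 31.3% of all genes. With an assumed coefficient of variation of 0.1, edgeR's exact test gave 1 member at an unadjusted p under 0.05, beside 7.25% of all genes. This test compares these libraries and not conditions, and its intervals cover counting error only. At any ratio, 2 members were higher in replicate 1, beside 11.6% of all genes, and 2 were lower, beside 10.4%. The members were more deeply counted, with a median of 9708 counts over both libraries beside 752 for all genes tested. The part of depth in the numbers called was not tested. The median absolute log2 ratio was 0.10 over the members and 0.14 over all genes tested.

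Prkar2b was higher in replicate 1, with a log2 ratio of 0.86 (95% interval 0.54 to 1.19), or 1.82-fold, at an adjusted p of 8.76e-07 by the exact binomial test. By edgeR's exact test its adjusted p was 0.0354 at an assumed variation (CV) of 0.1 and 1.00 at 0.2. All 4 adipocyte markers were also higher in replicate 1, 3 of them at any ratio by the same binomial test, among them Cfd at 10.09 TPM in replicate 1 and 5.83 TPM in replicate 2 and Plin1 at 4.19 and 2.04 TPM; Retn stood at 0.89 and 0.70 TPM. Of the 3 brown adipocyte markers, Ucp1 had 9.76 and 0.32 TPM, Cidea 25.76 and 22.61 TPM and Elovl3 0.02 and 0 TPM. Their part in the Prkar2b difference was not tested, nor was that of the atrial markers, all 4 of which were higher in replicate 1. In these bulk samples, more cells of a type and more RNA per cell cannot be told apart.

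The other 3 members called at any ratio moved by little. Prkacb was higher in replicate 1 by a log2 ratio of 0.10 (0.02 to 0.17; adjusted p = 0.0476, exact binomial test). Prkar1a was lower, at -0.10 (-0.14 to -0.07; adjusted p = 6.07e-10, exact binomial test), and Akap6 was lower, at -0.11 (-0.14 to -0.07; adjusted p = 9.36e-08, exact binomial test). With an assumed coefficient of variation of 0.1, edgeR's exact test gave all 3 an adjusted p of 1.00. Prkaca, Prkar1b, Prkar2a, Akap1, Akap5 and Akap13 did not pass, with log2 ratios between -0.28 and 0.23.

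**Figure D4:**
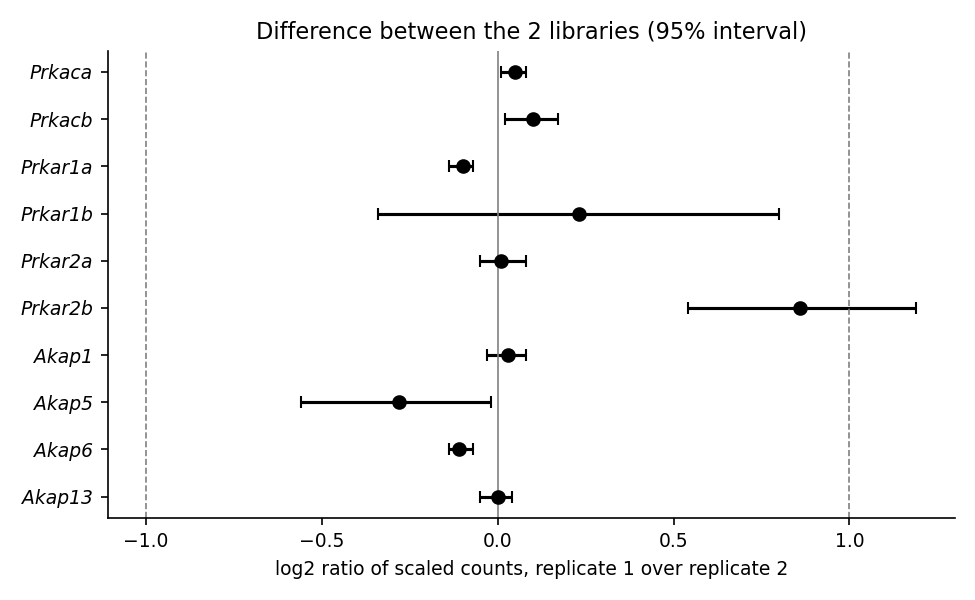
Log2 ratio of scaled counts, replicate 1 over replicate 2, for the 10 members with the 95% counting interval; dashed lines mark 2-fold. Prkar2b lies at 0.86, and the other 9 lie between -0.28 and 0.23.

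The remaining pathway was described with 66 genes in 9 lists, of which 57 reached 1 TPM in both libraries. Their median was 18.4 TPM in replicate 1 and 18.5 TPM in replicate 2. None of the 63 tested was called at 2-fold (exact binomial test), beside 3.20% of all genes; at any ratio 16 were higher in replicate 1 (25.4%) and 5 lower (7.94%), beside 11.6% and 10.4% of all genes. The pathway genes were also more deeply counted, with a median of 4565 counts over both libraries beside 752 for all genes tested; the part of depth in these counts was not tested. Myrip, an anchor first described in melanosome transport, was the pathway gene called at a threshold of 1.5-fold, beside 5.46% of all genes. It had 237 counts in replicate 1 and 192 in replicate 2, a log2 ratio of scaled counts of 0.59 (0.31 to 0.87), while its TPM values were 2.24 and 1.78; by edgeR's exact test its adjusted p was 0.374 at an assumed CV of 0.1.

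Of the 3 inhibitor genes, 2 were at 1 TPM or more in both libraries. Pkig had 69.79 TPM in replicate 1 and 75.05 TPM in replicate 2, Pkia 46.81 and 49.66 TPM, and Pkib 0.19 and 0.16 TPM (1.08 and 0.884 TPM by the kallisto-style tables). Together they came to 59.4% and 65.8% of the summed catalytic TPM, and to 74.7% and 86.0% by the kallisto-style tables, where Pkig stood at 136 and 156 TPM. Of the related kinases, Prkx had 8.03 and 8.78 TPM, Prkg1, a cyclic GMP-dependent kinase, 7.59 and 7.70 TPM and Prkg2 0.11 and 0.18 TPM. All 3 were below both Prkaca and Prkacb.

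Of 12 further AKAP genes 8 were at 1 TPM or more in both libraries. Akap2 led with 40.9 TPM in replicate 1 and 47.68 TPM in replicate 2; its expected counts, 6119.66 and 7911.43, were not whole, so some of its reads were divided with other genes and its level is uncertain. Akap7, which places the kinase near calcium channels and phospholamban, had 25.9 and 19.46 TPM. Akap8 and Akap8l, both nuclear, had 21.46 and 20.52 TPM and 20.15 and 20.16 TPM. By the kallisto-style tables Akap8 had 41.0 and 36.3 TPM, above Akap7 at 28.2 and 23.8 TPM, so the order of Akap7 and Akap8 was not the same in both kinds of table. Akap3, Akap4 and Akap14 had 0 counts in both libraries. Akap17b stayed under 1 TPM, with 0.68 and 0.92 (0.910 and 1.10 TPM by the kallisto-style tables). Akap3 and Akap4 are known from the sperm tail.

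Among 12 anchors without an AKAP symbol, Pde4dip, which encodes myomegalin, had 661.88 TPM in replicate 1 and 699.55 TPM in replicate 2. That was above every one of the 10 members by both kinds of table. Cmya5, which encodes myospryn of the costamere and Z-disc, had 72.0 and 73.44 TPM, Ezr 21.19 and 23.35 TPM and Arfgef2 16.25 and 17.89 TPM. Sphkap, Wasf1 and Rab32 were under 1 TPM in both libraries, but Rab32 had 1.13 and 1.13 TPM by the kallisto-style tables.

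Upstream, Gnas, the stimulatory G protein alpha subunit, had 567.18 TPM in replicate 1 and 554.89 TPM in replicate 2. The cyclases Adcy6 and Adcy5 had 84.93 and 81.65 TPM and 21.46 and 20.66 TPM, and the beta-adrenergic receptor Adrb1 9.13 and 9.51 TPM. All 7 genes of cyclic AMP production were at 1 TPM or more. Of the other proteins that bind cyclic AMP, Popdc2 led with 259.93 and 237.76 TPM, above Prkaca, followed by Bves with 15.6 and 17.28 TPM (31.7 and 32.5 TPM by the kallisto-style tables), Rapgef3 with 10.43 and 14.06 TPM and Popdc3 with 7.0 and 7.39 TPM.

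All 16 substrate genes were at 1 TPM or more, led by those of the contractile and calcium machinery. Tnni3, cardiac troponin I, had 3084 TPM in replicate 1 and 2996.75 TPM in replicate 2 (4644 and 4582 TPM by the kallisto-style tables), and Pln, phospholamban, 2151.09 and 2011.93 TPM. Mybpc3 had 799.51 and 787.16 TPM and Ryr2, the ryanodine receptor, 386.37 and 400.5 TPM. The phosphatase genes that oppose the kinase were led by Ppp1cb, at 193.02 and 195.13 TPM, and Ppp1ca, at 164.31 and 165.82 TPM, with Ppp1cc at 61.18 and 62.28 TPM and Ppp3cb at 24.63 and 26.48 TPM. By the kallisto-style tables Ppp1ca had 216 and 209 TPM, above Ppp1cb at 176 and 185 TPM. The order of Ppp1cb and Ppp1ca was thus not the same in both kinds of table. Expected counts of Ppp1cb and Ppp1cc were not whole, so some of their reads were divided with other genes. Pja2, a ubiquitin ligase for regulatory subunits, had 47.81 and 48.24 TPM, and Pdpk1, which phosphorylates the activation loop of the catalytic subunit, 18.83 and 19.59 TPM.

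**Figure D5:**
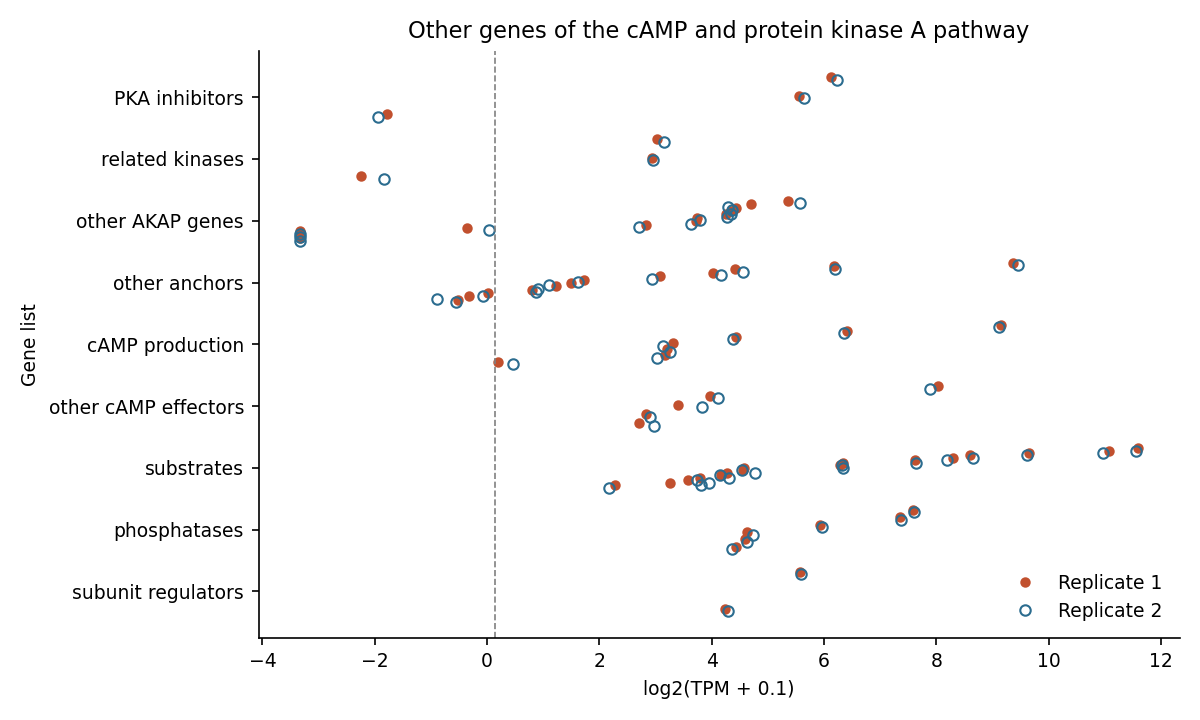
log2(TPM + 0.1) of the other pathway genes by list in replicate 1 (filled) and replicate 2 (open); the dashed line is 1 TPM. All genes of cyclic AMP production, other effectors, substrates, phosphatases and subunit regulators lie right of the line, and 3 AKAP genes lie at the left end with 0 TPM.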

How the data were processed

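Per the labels, stranded total RNA was sequenced from 2 heart libraries. The authors deposited, per the file headers, expected counts (RSEM-style) and estimated counts (kallisto-style), TPM, and the percent of a gene's TPM in each transcript, on mm10 with annotation M21; the tools are inferred from column names, and versions are not given in these sources. Kallisto-style TPM was summed per gene. Effective lengths fell short of transcript lengths by a median of 99 bases for RSEM-style values, but by 332 bases (replicate 1) or 336 bases (replicate 2) for kallisto-style values. Ratios used log2(TPM + 0.1); errors are SDs over 2 libraries. The between-library test was a 2-sided exact binomial test of rounded expected counts (10 in each library or 20 in total), with TMM factors from edgeR 4.0.16; DESeq2 1.42.0 size factors and edgeR's exact test with an assumed variation were alternatives. The test was also run on simulated Poisson counts with planted fold changes. That run held counting error only, so it cannot show how the test behaves under further variation between libraries. Spike-ins were left out of the between-library test. The depth given above was summed without removing them, and the reported TPM was not rescaled for them. Scripts used R 4.3.3, Python 3.11.15, scipy 1.17.1 and statsmodels 0.14.6.

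Members and lists were chosen with earlier results of these data known. Named were all 10 members, the 4 highest genes of each pathway list, those under 1 TPM in both libraries, genes called between the libraries, and transcripts with at least 10% of a gene's TPM by either table.

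The marker lists not given in the report summed, in replicates 1 and 2, to 245 and 230 TPM for endothelial, 440 and 376 TPM for fibroblast, 182 and 214 TPM for smooth muscle, 29.9 and 36.5 TPM for macrophage and 4.64 and 4.15 TPM for Schwann cell genes.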

Additional observations from a re-analysis of the deposited data

How the results depend on the processing

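Of genes at 1 TPM or more in both libraries, those also above 0 under an alternative moved by a median log2 of 0.27 with kallisto-style TPM (12114 genes), -0.12 with protein-coding transcripts only (11392 genes) and 1.24 after rescaling to nuclear protein-coding genes (11403 genes); the members' medians moved by 0.31, -0.01 and 1.24. The count of members at 1 TPM was 9 or 10 of 10 in the settings tried; at 0.5 TPM it was 10, and at 5 TPM 7. Log2 Prkaca over Prkacb, 2.44, was 2.16 with kallisto-style TPM, 2.98 with complete transcripts only and 2.0 with expected counts not divided by length. Type I over type II, 2.29, was 1.95, 2.53 and 1.93 in the same settings. Regulatory over catalytic, 0.02, was -0.15 with kallisto-style TPM and 0.53 with undivided expected counts. Leaving out 1 library gave 2.35 to 2.53, 2.22 to 2.37 and -0.05 to 0.09. The cause was not tested. Of the values for single members and their leading transcripts, 37 moved by at least 1 SD of the 2 libraries and 23 by less, leaving out a library not counted; kallisto-style levels were 1.07 to 1.48 times the reported ones, and posterior mean levels 0.980 to 2.20 times, the highest for Prkar1b. The setting with complete transcripts only was chosen after seeing the data.

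Of all genes, 532 were called between the libraries, 3666 with no fold threshold, 907 at 1.5-fold and 230 by edgeR with an assumed variation of 0.2. Members called were 0, or 4 with no fold threshold and 1 at 1.5-fold; pathway genes were 0, or 21 and 1. The other settings gave 0 for both. No paired analysis was possible because both libraries belong to the same group. Counts limit Prkar1b, Prkar2b and Akap5, with 53 to 285 counts a library.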
